A study of Mus musculus with 6 samples.

Results

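The 10 genes described here are Lce1f, Sprr1a, Sprr1b, Scel, Trp63, Sfn, Pkp1, Lor, Tgm1 and Evpl. Most encode proteins that build the cornified envelope of skin cells, while Trp63, Sfn and Pkp1 encode other proteins of epithelia. All 10 were measured in cultured muscle cells. They were chosen by gene symbol among the 10500 features of a 1-colour CodeLink array, taking for each gene the feature with the highest mean over the 6 arrays. Each gene had exactly 1 feature, so that the mean made no choice, and all 10 were among the 10186 features tested. The genes themselves were selected on their names with earlier results of these arrays known, so the values below describe them and the p-values are no independent support for the choice.

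The cultures came from satellite cells, the resident stem cells of muscle, of the hind limbs. The donors were 3 Swiss Webster mice, adult males with no genetic change named in the labels. Differentiated cultures spent 72 hours in F10C medium with 10% horse serum and insulin, labelled as 1 mM, with no added bFGF (basic fibroblast growth factor). Proliferating cultures were myoblasts harvested while expanding in medium with bFGF at 6.6 ng/ml. Each mouse gave 1 culture of each kind, so there were 3 arrays per group. Muscles of several compartments were pooled within a mouse, repeated plating over 5 days was meant to remove fibroblasts, and the labels describe what remained as a mix of myoblast clones. The state of the cells, the medium and the time in culture differed together between the groups and cannot be told apart.

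The cornified envelope is the cross-linked protein shell that forms under the membrane of skin keratinocytes as they die. Envoplakin (Evpl) and its partners lay a scaffold at desmosomes, transglutaminases such as Tgm1 weld proteins onto it, and sciellin (Scel), small proline-rich proteins (Sprr), loricrin (Lor) and late cornified envelope proteins (Lce) fill it in. Many of these genes sit side by side in the epidermal differentiation complex, on mouse chromosome 3. Trp63 encodes p63, the transcription factor that maintains stratified epithelia. Muscle forms no cornified envelope, although Sprr1a is also known as a gene of injured neurons and stressed heart muscle.

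The arrays had median intensities of 0.883 to 0.939. An intensity under 0.179, the 25th percentile of all positive values, is called dim below. Differences are differentiated minus proliferating on the log2 scale, with the SE of a limma fit to all features and p-values adjusted by Benjamini-Hochberg over the whole table. Of the 20 muscle markers measured, 18 were above the dim level on every array. Their summed intensity was 1750 to 2760 in differentiated cultures, against 373 to 1340 in proliferating cultures. Both kinds of culture thus carried muscle transcripts. Of the 20 markers, 2 passed a limma adjusted p under 0.05, against 0.285% of all features called higher. Sgcd, a sarcoglycan, rose by 2.87 and Tmod4, which caps thin filaments, by 4.59 (limma adjusted p = 0.0325 and 0.0335). In all 3 mice 16 of the 20 were higher and 1, Myod1, was lower, against 31.0% and 18.0% of features. Myod1 differed by -0.74 with no overlap of the groups (limma adjusted p = 0.418). Myog, the factor of terminal muscle differentiation, and Ckm, muscle creatine kinase, differed by 1.36 and 3.72 without passing (limma adjusted p = 0.467 and 0.402). All 13 markers of dividing cells were lower in all 3 mice, against 18.0% of features. Of the 13, 10 passed a limma adjusted p under 0.05, against 1.01% of all features called lower. They were led by Top2a, Cdc6 and Hmmr at -5.36, -4.77 and -4.57. In bulk RNA, fewer cells of a type and less RNA per cell cannot be told apart.

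Of the 10 genes, 1 rose past the threshold of an adjusted p under 0.05 and 0 fell, while limma called 0.285% of all 10186 features higher and 1.01% lower. Before adjustment, p was under 0.05 in limma for 4 of the 10, against 14.9% of all features. The intensities of 4 genes, Lce1f, Sprr1a, Trp63 and Tgm1, were higher in all differentiated than in all proliferating cultures with no overlap, as were those of 10.9% of the features with 6 values, and 0 were lower without overlap, against 9.80%. Within mice, 6 genes were higher in the differentiated culture of all 3 mice, against 31.0% of features, and 1, Sfn, was lower in all 3, against 18.0%. The median difference was 0.86 over the 10 genes and 0.20 over all features tested. Because the genes were picked with these results known, nothing is read from those shares.

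**Figure D1:**
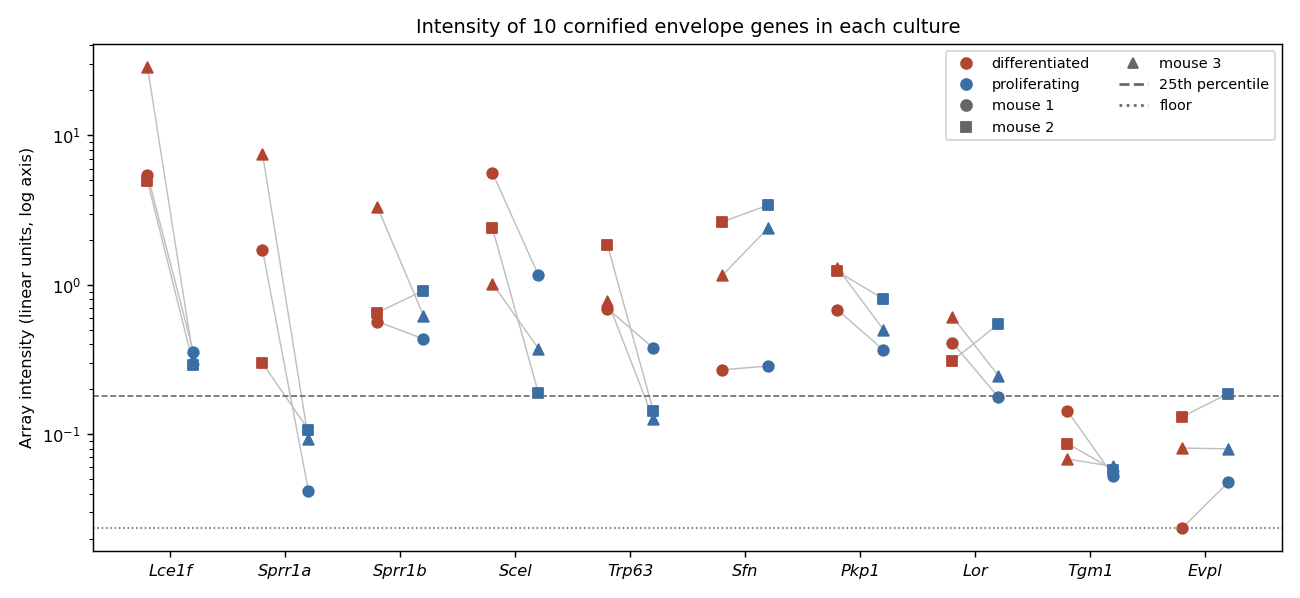
Intensity of each gene in every culture on a log axis, with differentiated cultures in red on the left and proliferating cultures in blue on the right of each gene, and grey lines joining the cultures of 1 mouse. The dashed line is the 25th percentile of positive intensities (0.179) and the dotted line the floor of 0.0236, at which the negative value of Evpl in differentiated mouse 1 is drawn. Lce1f sits between 4.95 and 28.7 in differentiated cultures, above its proliferating cultures at 0.290 to 0.353.

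Lce1f, a late cornified envelope protein of the outermost living skin layers, had the largest difference of the 10 genes. Its intensity was 5.45, 4.95 and 28.7 in differentiated cultures of mice 1, 2 and 3, against 0.353, 0.290 and 0.317 in their proliferating cultures. Every differentiated culture was thus far above every proliferating one, and mouse 3 stood well above the other two. The group means were 13 ± 13.6 in differentiated and 0.320 ± 0.0316 in proliferating cultures (SD, n = 3 each). Lce1f rose by 4.85 ± 0.69 on the log2 scale, or 28.8-fold, in 3 of 3 mice (limma adjusted p = 0.0297). None of the 6 values was dim. With mouse as a fixed block the adjusted p in limma was 0.0495, and in a fit with a random effect for mouse, the random-mouse fit below, it was 0.00359.

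The call for Lce1f depended on single arrays. Without differentiated replicate 2 or 3 its difference was 5.29 or 4.02 and its limma adjusted p 0.0566 or 0.0517. Without proliferating replicate 2 or 3 the difference was 4.78 or 4.84 and the limma adjusted p 0.12 or 0.131. In each of those 4 fits limma called 0 features in the whole table, with 986 to 1516 at an unadjusted p under 0.05. Without replicate 1 of either group the call remained (limma adjusted p = 0.0485 and 0.0382).

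No other late cornified envelope gene on the array passed. Of 5, Lce1a1, Lce1a2, Lce1b, Lce1g and Lce1l, 0 passed, against 1.30% of all features called by limma. The differences of the 5 ran from -0.42 to 0.83, and the smallest limma adjusted p was 0.518. Lce1g was dim on all 6 arrays. Lce1a2 was the only one of the 5 higher in all 3 mice, at 0.306, 0.795 and 0.690 in differentiated cultures, against 0.220, 0.336 and 0.406 in proliferating cultures, so that its groups overlapped. Genes of this family are very alike in sequence, and whether the Lce1f feature also binds transcripts of its relatives was not tested.

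Sprr1a, a small proline-rich protein that is cross-linked into the envelope, had the next largest difference. Its intensity was 1.72, 0.299 and 7.55 in differentiated cultures of mice 1, 2 and 3, against 0.0418, 0.107 and 0.0925 in proliferating cultures. The groups did not overlap, all 3 proliferating values were dim, and the differentiated cultures themselves spanned 4.66 on the log2 scale. The difference was 4.40 ± 1.06 in 3 of 3 mice and missed the threshold (limma adjusted p = 0.0978). It passed in the random-mouse fit (limma adjusted p = 0.0203) and not with mouse as a fixed block (0.0953). Because the proliferating values were dim, the size of the difference is limited by background, and with a pseudocount of 0.179 it was 2.89. Without differentiated replicate 2 the difference was 5.60 (limma adjusted p = 0.0566), and without differentiated replicate 3 it was 3.27 (limma adjusted p = 0.145).

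Sprr1b, a close relative of Sprr1a, showed no such separation. Its intensity was 0.568, 0.652 and 3.31 in differentiated cultures, against 0.434, 0.915 and 0.622 in proliferating cultures of the same mice. The high value was again differentiated mouse 3, while mouse 2 went the other way, and the groups overlapped. The difference was 0.77 ± 0.72 (limma adjusted p = 0.699), and without differentiated replicate 3 it was -0.04. Of the 5 other Sprr genes measured, Sprr2a1, Sprr2b, Sprr2d, Sprr2f and Sprr3, 0 passed, against 1.30% of all features. The 5 had differences from 0.02 to 1.48. The largest of these, Sprr2a1, had dim values on 5 of 6 arrays (limma adjusted p = 0.337). Whether the features of Sprr1a, Sprr1b and these relatives also bind each other's transcripts was not tested.

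Loricrin (Lor), the main protein of the finished envelope, had overlapping groups. Its intensity was 0.410, 0.311 and 0.612 in differentiated cultures, against 0.177, 0.546 and 0.246 in proliferating cultures. It was higher in the differentiated cultures of mice 1 and 3 and lower in that of mouse 2, the same pattern by mouse as Sprr1b. The difference was 0.57 ± 0.55 (limma adjusted p = 0.706).

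The promoters of Sprr1a, Sprr1b, Lor and Scel are shown because these members all hold the motif TGANTCA. Its forms TGAGTCA and TGACTCA, found in Sprr1a, Lor and Scel, are the core letters bound by AP-1 factors. The match in Sprr1b is TGAATCA, which is neither. The sequences are from RefSeq, build GRCm38.p6, and give the 250 bases before the annotated start, 5′ to 3′ on the gene's own strand. Capitals mark TGANTCA and CAGCTG, an E-box form bound by myogenic factors, and both motifs read the same on either strand. The windows are chr3:92485882-92486131 on the minus strand for Sprr1a, chr3:92438780-92439029 on the minus strand for Sprr1b, chr3:92083143-92083392 on the minus strand for Lor and chr14:103513091-103513340 on the plus strand for Scel.
Sprr1a: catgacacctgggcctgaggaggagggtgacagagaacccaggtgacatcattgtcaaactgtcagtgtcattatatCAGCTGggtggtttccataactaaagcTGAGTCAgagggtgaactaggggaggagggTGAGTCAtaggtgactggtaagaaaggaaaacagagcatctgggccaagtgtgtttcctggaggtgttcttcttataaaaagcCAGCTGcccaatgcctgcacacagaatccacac
Sprr1b: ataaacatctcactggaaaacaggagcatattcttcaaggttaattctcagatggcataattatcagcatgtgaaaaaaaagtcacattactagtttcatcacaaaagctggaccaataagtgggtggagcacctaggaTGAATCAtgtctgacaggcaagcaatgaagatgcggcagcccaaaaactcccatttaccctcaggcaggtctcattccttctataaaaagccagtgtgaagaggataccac
Lor: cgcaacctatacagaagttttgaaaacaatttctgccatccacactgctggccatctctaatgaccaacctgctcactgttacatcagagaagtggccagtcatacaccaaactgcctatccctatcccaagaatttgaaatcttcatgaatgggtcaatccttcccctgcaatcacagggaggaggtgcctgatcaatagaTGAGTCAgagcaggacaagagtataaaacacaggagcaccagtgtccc
Scel: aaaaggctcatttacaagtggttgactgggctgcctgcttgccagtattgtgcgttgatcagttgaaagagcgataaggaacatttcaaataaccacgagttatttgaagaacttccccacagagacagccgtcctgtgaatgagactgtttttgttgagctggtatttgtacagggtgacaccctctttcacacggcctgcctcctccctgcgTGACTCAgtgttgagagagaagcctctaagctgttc

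Windows were found for 6 of the 10 genes, these 4 with Sfn and Tgm1. The motif TGANTCA occurred in 4 of these 6 genes, against 7.82% of the 27025 genes with windows of the same length in the table. Sprr1a held it at 146 and 116 bases before the start, Sprr1b at 111, Lor at 48 and Scel at 36. CAGCTG occurred in 1 of the 6, Sprr1a, at 173 and 33 bases before the start, against 14.7% of genes. A match is a run of letters and shows no binding, and members that share TGANTCA had differences from 0.57 to 4.40.

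Lce1f, Sprr1a, Sprr1b and Lor all lie in the epidermal differentiation complex, here taken as the 69 protein-coding genes of chromosome 3 from S100a1 to S100a11 in the order of the GRCm38.p6 gene table. The array measured 22 of the 69. Of the 18 that are not among the 10 genes, 0 passed and 1 had an unadjusted p under 0.05 in limma. The shares over all features were 1.30% and 14.9%. The differences of the 18 ran from -1.08 for Smcp to 2.02 for S100a8, with a median of 0.22, close to the 0.20 of all features. The S100a8 value includes a negative intensity in proliferating mouse 1, set to the floor of 0.0236. Within mice 1, 2 and 3 it was 3.41, 0.09 and 2.56. S100a13, a calcium-binding protein of the block's edge, was higher in all 3 mice, at 64.4, 28.0 and 29.0 in differentiated cultures, against 22.6, 13.5 and 4.30 in proliferating cultures (limma adjusted p = 0.278). Sprr3, the gene between Sprr1b and Sprr1a in that order, had a difference of 1.27 ± 0.90 (limma adjusted p = 0.582).

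**Figure D2:**
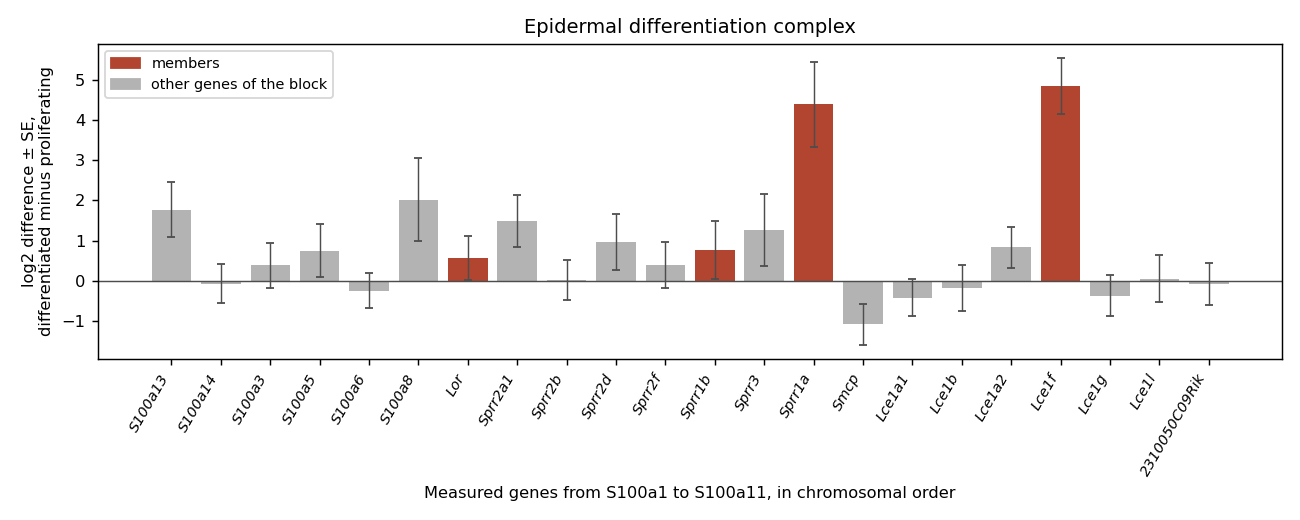
log2 difference, differentiated minus proliferating, with the SE of the fit, for the 22 measured genes of the epidermal differentiation complex in chromosomal order. Red bars are the members and grey bars the other 18 genes. Lce1f and Sprr1a stand at 4.85 and 4.40, and the grey bars lie between -1.08 and 2.02. The highest grey bar, S100a8, includes a negative intensity set to the floor.

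Scel encodes sciellin, a precursor protein of the envelope that lies on chromosome 14. Its intensity was 5.62, 2.39 and 1.02 in differentiated cultures of mice 1, 2 and 3, against 1.16, 0.188 and 0.374 in proliferating cultures. It was higher in the differentiated culture of every mouse, but proliferating mouse 1 lay above differentiated mouse 3, so the groups overlapped. The difference was 2.46 ± 0.83 (limma adjusted p = 0.215). It passed in the random-mouse fit (limma adjusted p = 0.0317) and not with mouse as a fixed block (0.083).

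Trp63, the transcription factor p63 of stratified epithelia, was higher in all differentiated cultures. Its intensity was 0.694, 1.85 and 0.783 in differentiated cultures, against 0.377, 0.142 and 0.126 in proliferating cultures. The groups did not overlap, and 2 of the proliferating values were dim. The difference was 2.41 ± 0.60 in 3 of 3 mice (limma adjusted p = 0.105), or 1.66 with a pseudocount of 0.179. It passed in the random-mouse fit (limma adjusted p = 0.0251) and not with mouse as a fixed block (0.106). Which isoforms of p63 the 1 feature measures was not tested.

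In the random-mouse fit, 4 of the 10 genes were called higher, Lce1f, Sprr1a, Scel and Trp63, against 5.07% of all features in that fit. With mouse as a fixed block only Lce1f was called, against 0.560% of features called higher.

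**Figure D3:**
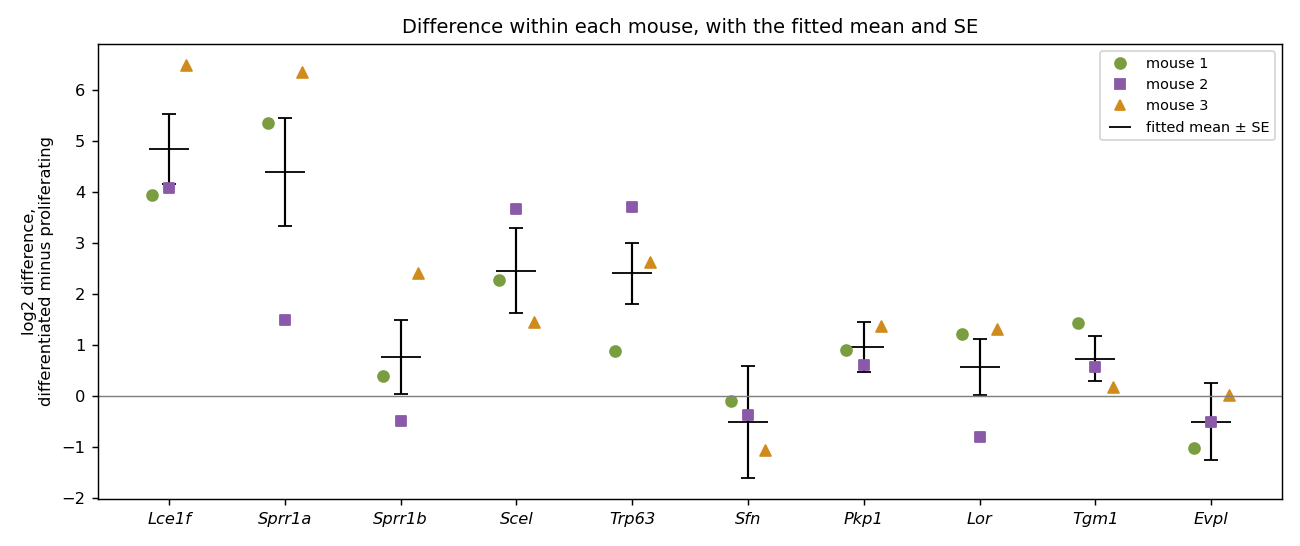
log2 difference between the differentiated and the proliferating culture of each mouse for the 10 genes (points) with the fitted mean and its SE (bar and whiskers). Mouse 3 has the largest difference for Lce1f (6.50) and Sprr1a (6.35), and mouse 2 for Scel (3.67) and Trp63 (3.70).

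The mice did not contribute evenly. For Lce1f the difference within mice 1, 2 and 3 was 3.95, 4.09 and 6.50, and for Sprr1a it was 5.36, 1.49 and 6.35. For Trp63 it was 0.88, 3.70 and 2.64, and for Scel 2.28, 3.67 and 1.45. Taken with its sign, the difference was highest in mouse 3 for 6 of the 10 genes, those of chromosome 3 and also Pkp1 and Evpl. For Evpl it was -1.01, -0.51 and 0.02 within mice 1, 2 and 3, so mouse 3 showed almost none. Mouse 2 had the highest difference for Trp63 and Scel. The differentiated culture of mouse 3 was the highest of its group for 5 of the 10 genes, and the proliferating culture of mouse 1 the lowest of its group for 7 of the 10.

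Sfn, Pkp1, Tgm1 and Evpl passed in none of the fits in which they were tested. Sfn encodes 14-3-3 sigma, a cell cycle brake of epithelia that p53 switches on. Its intensity was 0.270, 2.64 and 1.16 in differentiated cultures, against 0.286, 3.42 and 2.41 in proliferating cultures. It was low in both cultures of mouse 1 and high in both of mouse 2, so that mice differed far more than groups. The difference was -0.51 ± 1.10 (limma adjusted p = 0.891), and without differentiated replicate 1 it was 0.39.

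Pkp1 encodes plakophilin, an armadillo protein of the desmosome plaque. Its intensity was 0.681, 1.23 and 1.30 in differentiated cultures, against 0.366, 0.804 and 0.501 in proliferating cultures. It was higher in the differentiated culture of every mouse, with overlapping groups. The difference was 0.96 ± 0.49 (limma adjusted p = 0.416).

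Tgm1 and Evpl, the cross-linking enzyme and the scaffold protein, were at the dim end of the array. Tgm1 had 0.143, 0.0866 and 0.0682 in differentiated cultures, against 0.0526, 0.0578 and 0.0608 in proliferating cultures, all 6 values being dim. Its groups did not overlap, but the difference was 0.73 ± 0.44 (limma adjusted p = 0.502) at intensities where background limits what can be measured. Evpl had -0.0128, 0.131 and 0.0807 in differentiated cultures, against 0.0477, 0.187 and 0.0798 in proliferating cultures. Of its 6 values 5 were dim, and the difference was -0.50 ± 0.76 (limma adjusted p = 0.834).

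None of the measured genes with related roles passed. Over the 7 lists drawn up around the 10 genes, 91 other genes were measured, of which 0 passed in limma and 11 had an unadjusted p under 0.05, against 1.30% and 14.9% of all features. Of 26 other genes of the cornified envelope and epidermal differentiation, 8 were higher and 3 lower in all 3 mice, against 31.0% and 18.0% of features. The median difference of the 26 was 0.06. Gata3, a transcription factor of skin and hair follicle, had the smallest p, with 0.396, 0.391 and 0.204 in differentiated cultures, against 1.24, 2.09 and 0.814 in proliferating cultures. Its difference was -2.02 ± 0.52 (limma adjusted p = 0.111, and 0.012 in the random-mouse fit). With mouse as a fixed block 0 of the 91 genes passed, Gata3 included. Ivl, Flg, Dsp, Ppl and Jup were not analysed here.

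No relative of a single member passed. Tgm2, the widely expressed transglutaminase, had 1.22, 0.151 and 0.765 in differentiated cultures, against 0.0597, 6.12 and 0.0662 in proliferating cultures, with proliferating mouse 2 above the other 5 cultures (limma adjusted p = 0.882). Of 3 transglutaminase relatives measured 0 passed, with a median of 0.50. Epb42, the red cell protein of that family, had the smallest p (difference 0.50, limma adjusted p = 0.734). Of 5 armadillo relatives of Pkp1 0 passed, with a median of 0.04. Ctnnd1, a catenin that binds cadherins, had the smallest p (difference -0.87, limma adjusted p = 0.418). Of 5 other 14-3-3 genes 0 passed, with a median of -0.28. Ywhah had the smallest p (difference -0.83, limma adjusted p = 0.465).

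Of 15 genes of the p53 family and its targets 0 passed, with a median of 0.24. In all 3 mice 6 were higher and 4 lower, against 31.0% and 18.0% of features. Cdkn1a, the inhibitor of cyclin-dependent kinases, had 133, 104 and 58.4 in differentiated cultures, against 55.5, 32.5 and 28.8 in proliferating cultures. Its groups did not overlap, and its difference was 1.32 ± 0.50 (limma adjusted p = 0.268, and 0.0426 in the random-mouse fit), and it did not pass with mouse as a fixed block. Zmat3 went the other way, also without overlap, at -1.21 ± 0.46 (limma adjusted p = 0.268, and 0.046 in the random-mouse fit). With mouse as a fixed block Zmat3 did not pass either. Perp, a desmosomal target of p63, had a difference of 0.09 and was dim on 3 of 6 arrays. Trp53 and Trp73 were not analysed here.

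No measured marker of keratinocytes passed. Of the 22 markers listed 11 were measured. Since limma called only 1.30% of all features, 0 of 11 tells little. The median of the 11 was 0.20, the same as over all features. Their summed intensity was 6.43 to 10.0 in differentiated cultures, against 6.62 to 9.40 in proliferating cultures, so the ranges overlapped. None of the 11 had a value at or under 0, 1 was dim on all arrays, 6 on some and 4 on none. Epcam was dim on 5 of 6 arrays, with a difference of 0.20. Cdh1, the cadherin of epithelia, had 0.206, 0.383 and 0.206 in differentiated cultures, against 0.167, 0.0911 and 0.101 in proliferating cultures (limma adjusted p = 0.312). Itga6, an integrin of basal keratinocytes that other cells carry too, had the smallest p of the list, with a difference of -1.42 (limma adjusted p = 0.29). Krt5, Krt14 and Krt10, the defining keratins of skin, were not analysed here, and the part of any keratinocytes in these values was not tested.

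Keratins and epithelial junction genes were listed separately. Of 16 keratins 0 passed, with a median of 0.21. Krt80, a keratin of many epithelia, had 2.31, 2.62 and 1.97 in differentiated cultures, against 0.628, 1.24 and 0.894 in proliferating cultures (difference 1.37, limma adjusted p = 0.193, and 0.0316 in the random-mouse fit). Krt18 of simple epithelia went the other way, with 0.192, 0.160 and 0.0800 in differentiated cultures, against 0.522, 5.31 and 0.352 in proliferating cultures (limma adjusted p = 0.222, and 0.0456 in the random-mouse fit). Its partner Krt8 was dim on 5 of 6 arrays. Of 22 epithelial junction and transcription factor genes 0 passed, with a median of 0.02. In all 3 mice 4 of the 22 were higher and 4 lower, against 31.0% and 18.0% of features. Klf5, a transcription factor of epithelia and smooth muscle, had the smallest p, with 15.3, 19.1 and 14.5 in differentiated cultures, against 8.03, 4.73 and 4.84 in proliferating cultures (difference 1.51, limma adjusted p = 0.141, and 0.0233 in the random-mouse fit). Cldn4 of the same list went the other way, with a difference of -3.27 and overlapping groups (limma adjusted p = 0.253). Krt80, Krt18 and Klf5 did not pass with mouse as a fixed block.

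**Figure D4:**
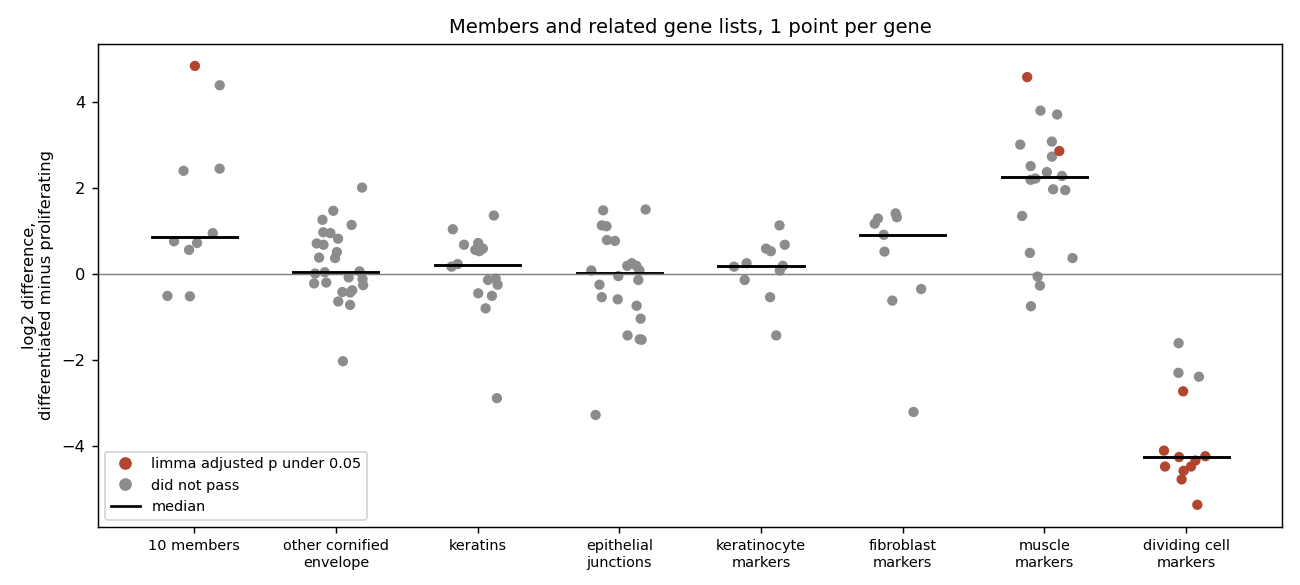
log2 difference, differentiated minus proliferating, of each measured gene in the 10 members, in 3 of the related lists (other cornified envelope genes, keratins and epithelial junctions) and in 4 marker lists (keratinocyte, fibroblast, muscle and dividing cells), with red points past a limma adjusted p of 0.05 and a black line at the median. The medians of other cornified envelope genes, keratins, epithelial junctions and keratinocyte markers lie between 0.02 and 0.21, and that of muscle markers at 2.26.

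Markers of fibroblasts, which preplating was meant to remove, were also measured. Of 9 fibroblast markers 0 passed, against 1.30% of all features called by limma, and every one was dim on at least 1 array. Their median difference was 0.92, with 2 higher and 1 lower in all 3 mice, against 31.0% and 18.0% of features. Their summed intensity was 2.62 to 3.21 in differentiated cultures, against 4.11 to 4.40 in proliferating cultures. Fbln1, a matrix protein, had the smallest p (difference -3.20, limma adjusted p = 0.0649). It was the largest single part of the proliferating sums, at 2.19, 3.01 and 3.47, against 0.549, 0.110 and 0.489 in differentiated cultures. The sums thus do not stand for the markers as a set. The part of fibroblasts in the values of the 10 genes was not tested.

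For Lce1f, Sprr1a and Trp63, the genes with the nearest profiles over the 6 arrays were sought. Likeness was measured as the root mean square distance between log2 profiles, each centred on its own mean, among 6122 named genes. The nearest to Lce1f were Capn6, a calpain family member, at 0.67, the triad protein Sypl2 at 0.77 and the endocytic adaptor Snap91 at 0.91. Capn6 had 11, 4.56 and 27.5 in differentiated cultures, against 0.731, 0.165 and 0.451 in proliferating cultures, with mouse 3 again highest. The nearest to Sprr1a was Lce1f itself at 0.93, then Stmn4 at 1.12 and the inflammasome adaptor Pycard at 1.18. The nearest to Trp63 were the phosphatase Dusp8 at 0.31, the sulfotransferase Chst2 at 0.36 and Irgm2, an interferon-induced GTPase, at 0.39. Between members, Pkp1 and Lor were nearest at 0.45. These distances rest on 6 arrays of 3 mice and carry no test.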

How the data were processed

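The authors deposited intensities on a linear scale, 1 value per feature and array. Per the labels' protocols, biotin-labelled cRNA was hybridised to 1-colour CodeLink arrays, and bacterial control mRNAs served to normalize intensity. A few values lie at or below 0, which implies an earlier background subtraction. Scanner software, background method and scaling remain not given in the sources used here. Detection calls were not used. Precision is limited by the number of arrays. The platform annotation named 1 gene for 6373 of 10500 features.

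Positive values had a 1st percentile of 0.0236, which served as a floor before log2. The log2 medians of the arrays spanned 0.089, so the arrays were left unscaled. For features with 2 or more values in each group, limma 3.58.1 (R 4.3.3) gave a two-sided test of group from lmFit and eBayes without other terms. The fit was tested on simulated data. Replicates are cultures of separate mice.

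Both cultures of a mouse carry its number, since the design text has each animal supply both, so the numbers pair the arrays. Deviations from the group means correlated between the 2 arrays of a mouse at 0.42, 0.37 and 0.28 across features.

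The members and gene lists were chosen with earlier results of these data known. Beside the members, the text names from each list up to 3 genes past the threshold in each direction, or the gene with the smallest p, a fixed panel, and the 3 nearest profiles of 3 members. S100a8, S100a13, Smcp, Sprr3, the Lce and Sprr relatives and the genes that passed under other settings were added after their values were seen. So were Myod1 and Cldn4. Alternatives covered the floor, a pseudocount, normalization, dim and incomplete features, the prior, the mouse block, the threshold and left-out arrays.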

Additional observations from a re-analysis of the deposited data

How the results depend on the processing

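The main count was 1 of the 10 genes called higher and 0 lower, and 0 of the 91 genes of the related lists. It stayed at 1 and 0, with Lce1f the gene called, under a floor at the 10th percentile, the pseudocount, quantile normalization, median centring, dim features (Tgm1 and Evpl among them) or incomplete features left out, the trended robust prior and mouse as a fixed replicate block. With mouse as a random replicate block 4 were higher, with 3 list genes higher and 3 lower (Klf5, Krt80 and Cdkn1a, and Gata3, Zmat3 and Krt18), while 10.3% of all features were called in that fit. With the fixed block and quantile normalization together 0 were higher, Lce1f having a limma adjusted p of 0.0611. At an adjusted p under 0.01 limma called 0 features in the whole table (1519 at an unadjusted p under 0.05), hence 0 of the 10 (4 unadjusted). Under 0.10 it called 2 of the 10, Lce1f and Sprr1a, and 3.34% of all features. The pseudocount called 1 list gene higher, Klf5. Leaving out 1 array or 1 mouse gave 0 to 1 of the 10 higher, and leaving out both arrays of a mouse gave 0 limma calls in the whole table each time, with 854 to 1424 at an unadjusted p under 0.05. Directions turned for 3 genes that never passed. Sfn was 0.39 without differentiated replicate 1 and 0.17 without proliferating replicate 2, and Evpl was 0.21 and 0.03 in those same fits. Over all left-out arrays and mice Sfn reached -1.62, Evpl -1.03 and Sprr1b 1.40. Sprr1b was -0.04 without differentiated replicate 3 and -0.05 without mouse 3. Lce1f ranged from 4.02 to 5.30, Sprr1a from 2.89 to 5.86, Scel from 1.85 to 3.17 and Trp63 from 1.66 to 3.17 over the 21 alternatives. Another feature per gene could not be tried, since each gene had 1. Signal near background limits Tgm1, Evpl and the proliferating values of Sprr1a and Trp63.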
